A study of Homo sapiens with 14 samples.

Results

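The Notch genes examined here were 3 receptors (NOTCH1, NOTCH2 and NOTCH3), 3 ligands (JAG1, JAG2 and DLL1) and 4 targets (HES1, HES4, HEY1 and NRARP). These 10 genes are part of 20033 protein-coding genes annotated in GENCODE 44, and they were chosen by name as core components and readouts of the pathway. For each of them, KLF4 ChIP-seq peaks were collected whose summit lay between 10 kb upstream of the annotated 5′ end of the gene and 2 kb past its 3′ end. The peaks came from BEAS-2B cells, an immortalised human airway line of bronchial epithelial origin. The conditions numbered 4, with 1 KLF4 library in each: WT control, WT As3+, Nrf2 KO control and Nrf2 KO As3+. WT and Nrf2 KO denote cells with and without a functional NFE2L2 gene, which encodes the stress-response transcription factor Nrf2. The KO cells were made with CRISPR guides against exon 2 and picked as colonies that lacked Nrf2 protein on a western blot. As3+ denotes trivalent arsenic at 1 µM for 6 h, and control cells of both genotypes received none. A peak list holds neither expression values nor edited sequence, so the cell line and the knockout could not be checked in these data. Because no condition was replicated, differences between conditions are given as values without a test.

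Notch signalling works between touching cells. A ligand of the Jagged or Delta-like family on one cell binds a Notch receptor on its neighbour, the receptor is cut, and its intracellular domain enters the nucleus. There it joins the DNA-binding protein RBPJ and switches on targets such as the HES and HEY genes, which encode repressors of the basic helix-loop-helix class. NRARP, another target, encodes an ankyrin repeat protein that dampens the signal. In the airway epithelium the pathway is known for steering basal cells toward secretory rather than ciliated fates. KLF4 is a zinc finger transcription factor of epithelia that binds CACCC and related GC-rich sequences.

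The sequences at the strongest WT As3+ summits of 2 targets, 2 ligands and 1 receptor are shown first, because these genes carried the highest enrichment in their class or the clearest contrast between the libraries. Each is 100 bases of hg38 centred on the summit of the peak with the highest −log10 p of that gene, written 5′ to 3′ on the strand of the gene. The HES1 window is chr3:194134812-194134911 on the plus strand, 1286 bp upstream of the transcription start site (TSS). The HES4 window is chr1:1000333-1000432 on the minus strand, 286 bp upstream of the TSS. The DLL1 window is chr6:170295951-170296050 on the minus strand, 4923 bp upstream of the TSS of the canonical transcript and inside the DLL1 gene record. The JAG1 window is chr20:10671734-10671833 on the minus strand, in intron 2 and 2215 bp downstream of the TSS. The NOTCH1 window is chr9:136546256-136546355 on the minus strand, 258 bp upstream of the TSS. Capitals mark a GC box, the word CCCCGCCCC or its reverse complement GGGGCGGGG.
HES1: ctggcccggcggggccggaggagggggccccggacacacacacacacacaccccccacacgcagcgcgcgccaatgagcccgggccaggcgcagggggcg
HES4: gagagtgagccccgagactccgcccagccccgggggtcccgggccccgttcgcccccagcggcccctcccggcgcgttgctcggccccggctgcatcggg
DLL1: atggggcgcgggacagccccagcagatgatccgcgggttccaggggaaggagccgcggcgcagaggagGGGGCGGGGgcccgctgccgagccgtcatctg
JAG1: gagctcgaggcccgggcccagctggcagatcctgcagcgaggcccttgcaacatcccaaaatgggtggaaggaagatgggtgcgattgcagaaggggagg
NOTCH1: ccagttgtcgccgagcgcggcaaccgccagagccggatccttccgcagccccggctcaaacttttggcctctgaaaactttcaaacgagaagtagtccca
The GC content of these windows was 79% at HES1, 81% at HES4, 75% at DLL1, 63% at JAG1 and 59% at NOTCH1. A run of alternating c and a followed by 6 bases of c lies near the centre of the HES1 window. None of the 5 windows held the KLF words CCACACCC or CCACGCCC in full.

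KLF4 peaks at the Notch genes were found in the WT As3+ and Nrf2 KO control lists and in neither of the other 2. In WT As3+ cells, 9 of the 10 genes had a peak, where 66.5% of all protein-coding genes had one, and NOTCH2 was the exception. In Nrf2 KO control cells all 10 had a peak, where the background was 81.0%. In WT control cells 0 of 10 had a peak against a background of 2.51%, and in Nrf2 KO As3+ cells 0 of 10 against 0.439%. With such backgrounds, the number of members with a peak followed the length of the list in each library, and a peak at a member was common among genes at large in the long lists and rare in the short ones.

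The members' windows together held 38 peaks in WT As3+ and 80 in Nrf2 KO control cells, in 503 kb of sequence. Per 100 kb of window this was 7.55 and 15.9 peaks, while all protein-coding genes had 1.93 and 4.50. The median member had 3.5 peaks in WT As3+ and 8 in Nrf2 KO control, where the median protein-coding gene had 1 and 2. The median window was 38.1 kb at the members and 39.5 kb over all genes, but the mean window was shorter at the members, at 50.3 against 80.9 kb, which raises their density. Per gene the means were 3.8 and 8 peaks at the members and 1.56 and 3.64 over all genes. The members' windows thus held more peaks than a typical gene window in both libraries, although a count over 10 chosen genes carries no test.

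**Figure D1:**
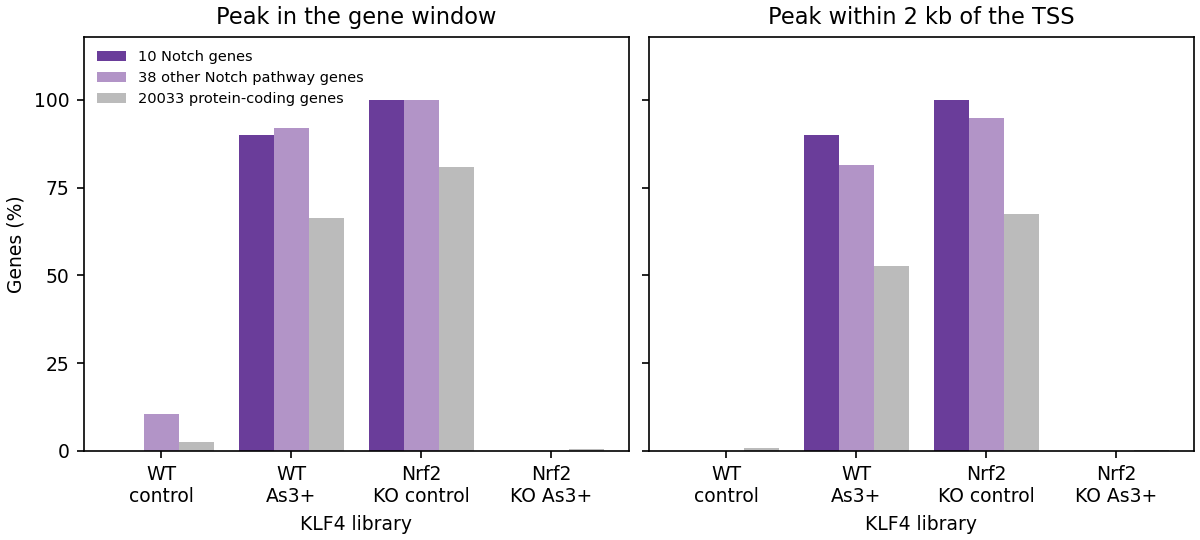
Percent of genes (vertical axis) with a KLF4 summit in the gene window (left) or within 2 kb of the canonical TSS (right) in each of the 4 libraries, for the 10 Notch genes, 38 other Notch pathway genes and 20033 protein-coding genes. Bars are shares of 1 library each and have no error bar; the Notch genes stand at 90% and 100% in WT As3+ and Nrf2 KO control and at 0% in the other 2 libraries.

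The pattern of peaks in WT As3+ and Nrf2 KO control with none in the other libraries was shown by 9 of the 10 members. This was also the most common pattern over the genome, at 61.3% of protein-coding genes. The 4 lists differ greatly in length, from 130 peaks in Nrf2 KO As3+ and 751 in WT control to 29870 in WT As3+ and 76545 in Nrf2 KO control. They also differ in the weakest signal that they list, with a lowest −log10 p of 4.64 in WT control, 3.17 in WT As3+, 2.87 in Nrf2 KO control and 5.03 in Nrf2 KO As3+. At the lowest background of its library, the fewest fragments over a listed summit, worked out from fold and p, were 13, 5, 4 and 10 in the same order. The weakest fold listed at that background was 4.77 in WT control and 4.17 in Nrf2 KO As3+. Of the 38 WT As3+ member peaks, 17 had a fold above 4.77 and 28 had one above 4.17. Of the 80 Nrf2 KO control member peaks, 42 and 62 did. A site below the threshold of its library is not listed, so the absence of a member from the short lists does not give its level there. The part of depth and threshold in the absence of peaks was not tested.

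No peak of the short lists lay near a member. In the WT control list the nearest summit to a member's TSS was 77.0 kb away at JAG2 and 79.6 kb away at HES4, and the farthest was 6632 kb at JAG1. In the Nrf2 KO As3+ list the nearest was 239 kb from JAG1, and that of HES4 was 2543 kb away.

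**Figure D2:**
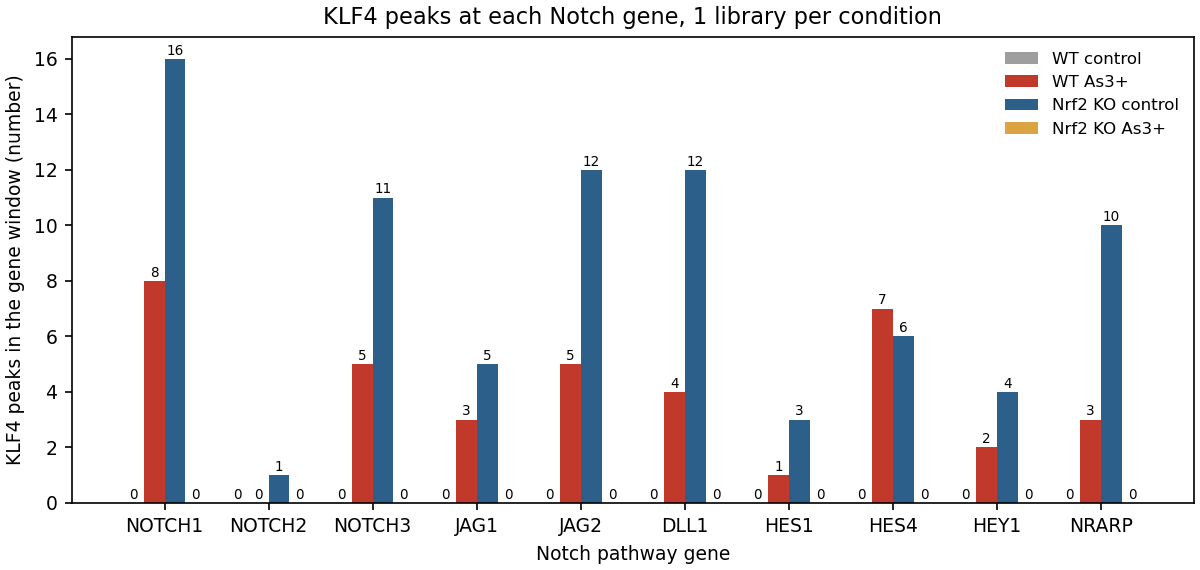
Number of KLF4 peaks in the window of each Notch gene (vertical axis, from 0) in the 4 libraries, with the number printed over each bar and 1 library per condition. All 10 genes stand at 0 in WT control and Nrf2 KO As3+, NOTCH1 has the most peaks in both other libraries, and HES4 is the gene with more in WT As3+ (7) than in Nrf2 KO control (6).

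Most members had more peaks in Nrf2 KO control than in WT As3+ cells. This was so at 9 of the 10 genes, and HES4 had fewer. Over protein-coding genes 61.6% had more, 8.15% had fewer and 30.3% had equal numbers. The equal group includes genes with no peak in either library, and no member was in it. The share of 61.6% is lowered by these equal genes, so the members are not shown to exceed the background. Relative to WT As3+, the Nrf2 KO control list itself was longer, so the members are set beside that list in what follows. The enrichment at the members was typical of their lists, with a median fold of 4.72 in WT As3+ (4.72 over the list) and 4.86 in Nrf2 KO control (4.69 over the list). A −log10 q of at least 5 was reached by 11 of the 38 WT As3+ member peaks, or 28.9%, and by 31.9% of that list. The same held for 19 of the 80 Nrf2 KO control peaks, or 23.8%, and for 21.1% of that list. The depth behind these values was small, with a median of 10 fragments over a member summit in WT As3+ (5 to 30) and 7 in Nrf2 KO control (4 to 22).

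Promoters, taken as 2 kb on either side of the canonical TSS, held a summit at 9 members in WT As3+ and at all 10 in Nrf2 KO control. Over protein-coding genes the shares were 52.5% and 67.5%. No member promoter had a summit in WT control or Nrf2 KO As3+, where the shares over all genes were 0.794% and 0.195%. Of the WT As3+ member peaks, 23 of 38 (60.5%) lay at a promoter, and of those in Nrf2 KO control 30 of 80 (37.5%). Over the whole lists, 13524 of 29870 and 20932 of 76545 peaks lay at the promoter of any protein-coding gene. The lower share in Nrf2 KO control thus also runs through the lists and is not particular to the members. By place in the canonical transcript, 17 of the 38 WT As3+ peaks were upstream, 12 in introns, 7 in exons and 2 downstream. Of the 80 Nrf2 KO control peaks, 31 were upstream, 33 in introns, 14 in exons and 2 downstream.

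**Figure D3:**
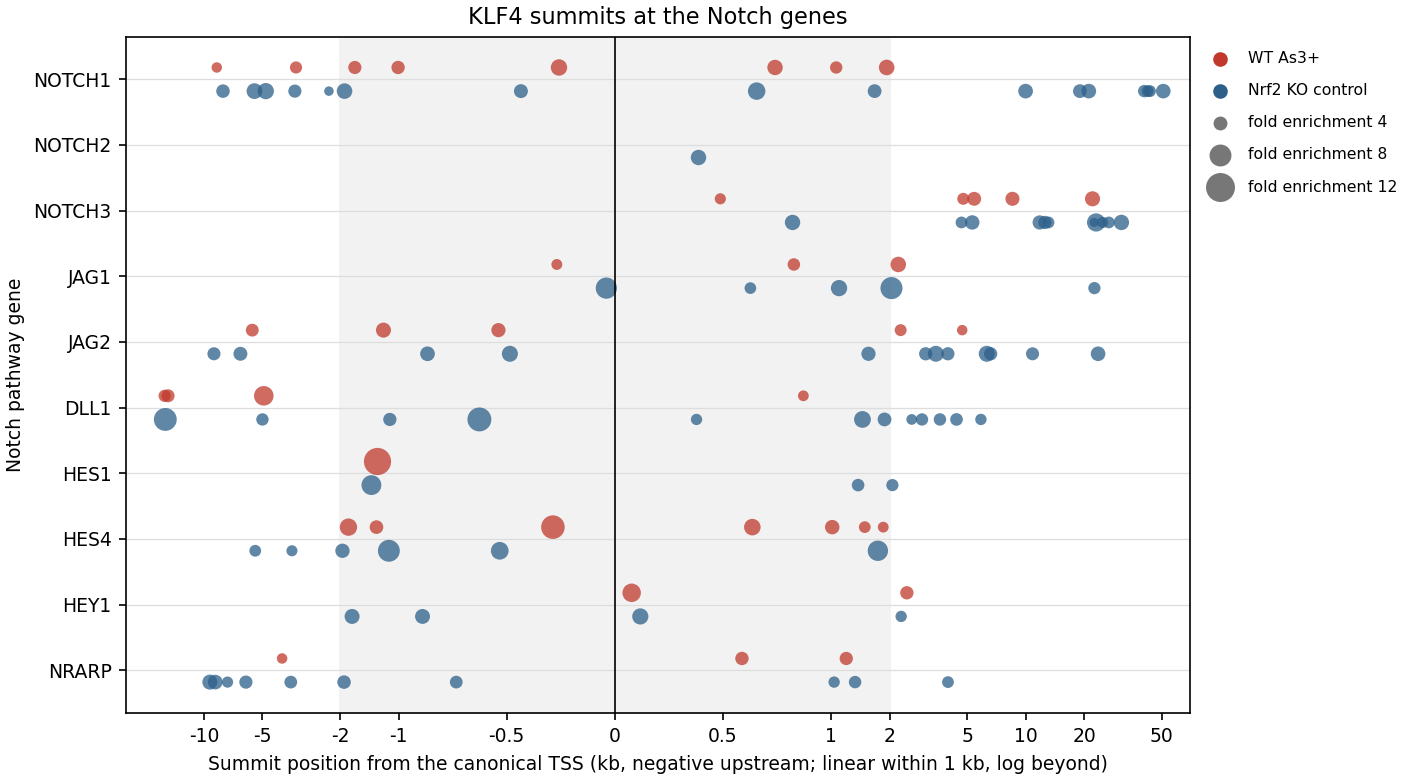
Position of each KLF4 summit from the canonical TSS (horizontal axis in kb, linear within 1 kb and logarithmic beyond) for the 10 Notch genes, with WT As3+ above and Nrf2 KO control below the line of each gene and the area of a point growing with fold enrichment. The largest points are HES1 and HES4 in WT As3+ and DLL1 and JAG1 in Nrf2 KO control, and summits far inside NOTCH1, NOTCH3 and JAG2 are mostly from Nrf2 KO control.

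Among the receptors, which bind the ligand and carry the signal to the nucleus, the 3 genes had 13 peaks in WT As3+ and 28 in Nrf2 KO control. The promoters held 7 of the 13 and 6 of the 28. The highest fold enrichment at a receptor was 6.21 in WT As3+ and 7.17 in Nrf2 KO control.

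NOTCH1 (chromosome 9, minus strand, 136494433 to 136546048) had 8 peaks in WT As3+ and 16 in Nrf2 KO control. In WT As3+ 6 of the 8 were at the promoter, and peaks covered 52.0% of its 4001 bases. The peak with the highest fold enrichment, 6.21 with 11 fragments over the summit, ran from 136546193 to 136546392, the NOTCH1 sequence given above. It lay 47 bp from the start of MIR4674, a microRNA gene beside NOTCH1. Of the other WT As3+ peaks, 4 upstream ones were nearest to NALT1, a long non-coding RNA gene next to NOTCH1, so a peak in this window need not belong to NOTCH1. In Nrf2 KO control the promoter coverage was alike at 53.1%, with a highest fold enrichment of 6.77 from 136544755 to 136545777 in intron 1. A further 7 Nrf2 KO control peaks lay from 9988 to 50917 bp inside the gene, where WT As3+ had none. All of these had folds between 4.00 and 5.36, with 5 to 7 fragments.

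NOTCH2 (chromosome 1, minus strand, 119911553 to 120100779) has the longest window of the group. It had no WT As3+ peak and 1 peak in Nrf2 KO control. This peak ran from 120069151 to 120069475 in intron 1, with its summit 384 bp past the canonical TSS. It rested on 9 fragments and was enriched 5.72-fold. The WT As3+ list can hold peaks of 5 fragments at its lowest background, so a site with fewer fragments would not have been listed. At NOTCH2 both the number and the density of peaks were the lowest of the 10 genes in both libraries.

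NOTCH3 (chromosome 19, minus strand, 15159038 to 15200995) had 5 peaks in WT As3+ and 11 in Nrf2 KO control, of which 1 in each was at the promoter. In WT As3+ the promoter peak had a fold enrichment of 3.73 with 6 fragments, and in Nrf2 KO control 5.71 with 8 fragments. The highest fold enrichments were inside the gene body. They were 5.57 in intron 22 in WT As3+, 22043 bp from the TSS, and 7.17 in exon 24 in Nrf2 KO control, 23002 bp from the TSS. These intervals, 15178815 to 15179224 and 15177831 to 15178190, did not overlap. The 2 peaks in intron 2 at 5437 and 4777 bp in WT As3+ did overlap Nrf2 KO control peaks, with nearly the same folds of 5.00 and 5.25 at the former and 4.08 and 4.00 at the latter.

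The 3 ligand genes had 12 peaks in WT As3+ and 29 in Nrf2 KO control, of which 5 and 11 were at promoters. The Nrf2 KO control library held the highest enrichments here, up to 10.3, and the highest in WT As3+ was 7.84.

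JAG1 (chromosome 20, minus strand, 10637684 to 10673999) had 3 peaks in WT As3+ and 5 in Nrf2 KO control. All 3 WT As3+ peaks overlapped a Nrf2 KO control peak. Where several overlap, a peak is paired here with the one of highest −log10 p, and in these pairs WT As3+ had the lower fold at all 3. The WT As3+ peak in intron 1, with a fold of 4.33, was paired with a Nrf2 KO control peak of 6.16 and also overlapped a weaker one of 3.95. At the TSS the WT As3+ peak from 10674142 to 10674471 had a fold enrichment of 3.63 with 11 fragments over a background of 2.31. The Nrf2 KO control peak there, from 10673743 to 10674772 with its summit 39 bp upstream of the TSS, had a fold of 8.77 with 22 fragments over 1.62. The log2 ratio of WT As3+ to Nrf2 KO control fold was −1.27, which is at the percentile 0.934 of all 16599 overlapping pairs of the 2 lists. In intron 2, at the JAG1 sequence shown, the folds were 5.77 and 9.24, with 17 and 20 fragments. The Nrf2 KO control peaks at the TSS and in intron 2 ranked 500 and 537 of 76545 by −log10 p, in the top 1% of the list at 0.653% and 0.702%. A long non-coding RNA gene without a symbol starts within JAG1, and its start was the nearest one to 2 of the 3 WT As3+ summits and to 3 of the 5 in Nrf2 KO control.

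JAG2 (chromosome 14, minus strand, 105140982 to 105168824) had 5 peaks in WT As3+ and 12 in Nrf2 KO control, all of moderate enrichment with folds from 3.41 to 6.04. The promoter held 2 peaks in WT As3+, 538 and 1195 bp upstream of the TSS, with folds of 5.12 and 5.53. Both overlapped Nrf2 KO control peaks with folds of 6.04 and 5.36. Within intron 2 the Nrf2 KO control library had 7 peaks and WT As3+ had 2, and none of these overlapped between the libraries. Upstream, the summits beyond 5 kb were nearest to the neighbouring gene NUDT14.

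DLL1 (chromosome 6, minus strand, 170282206 to 170306565) had 4 peaks in WT As3+ and 12 in Nrf2 KO control. Its canonical transcript starts at 170291078, which is 15487 bp inside the gene record, and the record begins beside FAM120B, a neighbouring gene. An annotated FAM120B start was the nearest one to 3 of the 4 WT As3+ and 10 of the 12 Nrf2 KO control summits, so most peaks in this window cannot be given to DLL1 by position. In WT As3+ the highest fold enrichment was 7.84 with 15 fragments, from 170295322 to 170296306, at the DLL1 sequence with the GC box and 680 bp from a FAM120B start. The Nrf2 KO control peak that overlaps it had a fold of 4.27 with 7 fragments. This log2 ratio of 0.88 was the highest of the 29 member pairs and stood at the percentile 97.8 of all pairs. The reverse was seen closer to the TSS. A Nrf2 KO control peak from 170291490 to 170292027, 626 bp upstream of the canonical TSS, had a fold of 10.3 with 18 fragments and ranked 422 in its list. It was the highest fold of any member in Nrf2 KO control, and no WT As3+ peak overlapped it. At the far start of the gene record, 103 bp from another FAM120B start, a Nrf2 KO control peak had a fold of 9.69 with 22 fragments. The 2 WT As3+ peaks that overlap it had folds of 4.56 and 4.21 with 12 and 11 fragments.

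The 4 target genes are short, and their windows together had the highest density of peaks, with 21.7 per 100 kb in WT As3+ and 38.4 in Nrf2 KO control. The ligands had 9.64 and 23.3, and the receptors 4.08 and 8.78. Short genes give windows that consist mostly of the flanks of the gene, so these densities are not independent of gene length. Of the 13 WT As3+ peaks at targets, 11 were at promoters (84.6%), and of the 23 in Nrf2 KO control 13 were (56.5%). As given above, the share at promoters was lower in Nrf2 KO control over the whole lists too.

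HES1 (chromosome 3, plus strand, 194136148 to 194138732) encodes a repressor and is a classical Notch target. Its 1 WT As3+ peak, from 194134451 to 194135414, had the highest fold enrichment of any member in either library, 12.2 with 30 fragments over a background of 1.54. It ranked 245 of 29870 by −log10 p, in the top 0.820% of the list. In Nrf2 KO control a peak at nearly the same place, from 194134477 to 194135368, had a fold of 8.01 with 16 fragments over 1.12 and ranked 1862. The log2 ratio of the 2 folds was 0.61, at the percentile 93.7 of all overlapping pairs. The summits lay 92 bp apart, 1286 and 1378 bp upstream of the HES1 TSS. A long non-coding RNA gene without a symbol starts closer to them, at 357 and 449 bp. A further 2 Nrf2 KO control peaks lay in intron 3 and exon 4, with folds of 4.37 and 4.19.

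HES4 (chromosome 1, minus strand, 998962 to 1000172) encodes another repressor of the HES family and had 7 peaks in WT As3+ and 6 in Nrf2 KO control. All 7 WT As3+ peaks lay at the promoter and overlapped Nrf2 KO control peaks, which here are fewer and mostly wider. Peaks covered 64.5% of the promoter in WT As3+ and 83.5% in Nrf2 KO control, the highest shares of the 10 genes. The highest fold in WT As3+ was 10.1 with 25 fragments, from 1000025 to 1000861, and the peak ranked 573 in its list. The Nrf2 KO control peak over it was 1598 bp wide, from 999195 to 1000792, with a fold of 6.89 and 15 fragments. ISG15, an interferon-induced gene, starts beside HES4 on the other strand, and on its side the folds went both ways. A Nrf2 KO control peak from 1000886 to 1001406, with its summit 73 bp from the ISG15 start, had a fold of 9.14 with 20 fragments, where the overlapping WT As3+ peak had 4.87 with 11. Farther out, the WT As3+ peak from 1001692 to 1002058 had a fold of 6.69 against 5.18 in Nrf2 KO control. The promoter windows of the 2 genes overlap, so peaks cannot be given to HES4 or ISG15 by position.

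HEY1 (chromosome 8, minus strand, 79762371 to 79767857), which encodes a repressor of the HEY family, had 2 peaks in WT As3+ and 4 in Nrf2 KO control. The TSS peak was found in both, with a fold of 7.29 and 15 fragments in WT As3+ and 6.11 and 10 fragments in Nrf2 KO control, and with summits 40 bp apart. The other WT As3+ peak, in exon 5, had a fold of 4.72 and overlapped a Nrf2 KO control peak of 3.81. Upstream, 2 Nrf2 KO control peaks with folds of 5.48 and 5.52 were nearest to LINC01607, a long non-coding RNA gene.

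NRARP (chromosome 9, minus strand, 137299631 to 137302271) had 3 peaks in WT As3+ and 10 in Nrf2 KO control. Its window had the highest density of the 10 genes in Nrf2 KO control, 68.3 per 100 kb, yet none of its peaks reached a fold of 6. The WT As3+ folds were 4.69, 4.74 and 3.43, and those in Nrf2 KO control ran from 3.74 to 5.54 with 5 to 8 fragments. Of these 13 peaks, none reached a −log10 q of 5.

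The WT As3+ and Nrf2 KO control peaks were next compared for position. Of the 38 WT As3+ member peaks, 29 overlapped a Nrf2 KO control peak by at least 1 bp, which is 76.3% (95% Clopper-Pearson interval 59.8% to 88.6%) and stands beside 55.6% for the whole list. At promoters 20 of 23 overlapped (87.0%, 66.4% to 97.2%) and elsewhere 9 of 15 (60.0%, 32.3% to 83.7%). Over the whole list, split by the promoters of all protein-coding genes, the shares were 78.8% and 36.3%. Member peaks, by contrast, were split by the member's own TSS. Those elsewhere can thus lie at the promoter of a neighbouring gene, so the classes are not alike for either library. Of the 80 Nrf2 KO control member peaks, 25 overlapped a WT As3+ peak, or 31.3% (21.3% to 42.6%), beside 21.7% of that list. At promoters this was 17 of 30 (56.7%, 37.4% to 74.5%) and elsewhere 8 of 50 (16.0%, 7.17% to 29.1%), beside 50.5% and 10.8% of the list. These intervals cover counting error only, and peaks of 1 gene are not independent. Summits lay within 100 bp of each other at 7 of the 38 (18.4%, 7.74% to 34.3%), beside 22.9% of the whole list.

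**Figure D4:**
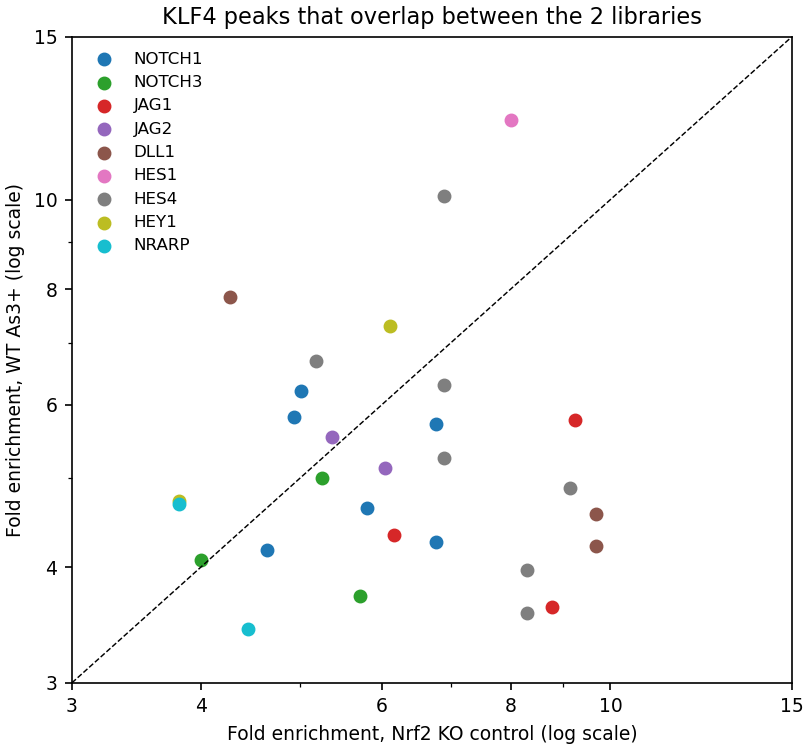
Fold enrichment at the summit in WT As3+ (vertical axis, log scale) against Nrf2 KO control (horizontal axis, log scale) for the 29 overlapping pairs of peaks at the Notch genes, coloured by gene, with a dashed line of equal folds. HES1 (12.2 against 8.01) and the highest HES4 point lie above the line, while the 3 JAG1 pairs lie below it.

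In fold enrichment the 29 pairs were spread on both sides of equality. The median log2 ratio of WT As3+ to Nrf2 KO control was −0.24 (quartiles −0.67 and 0.25), beside −0.14 (−0.46 and 0.19) over all 16599 pairs. The fold was higher in WT As3+ in 11 of the 29 pairs (37.9%), beside 38.7% of all pairs. A Nrf2 KO control peak that overlapped several WT As3+ peaks could enter more than 1 pair, so the pairs are not independent. Paired summits lay up to 1546 bp apart, at HES4, so a pair need not compare the same site. HES1, HEY1 and the peaks closest upstream of the TSS of HES4 and NOTCH1 were among those higher in WT As3+, and JAG1, the FAM120B end of DLL1 and the 3′ flank of HES4 were higher in Nrf2 KO control. The libraries differ in background, so these folds are set side by side and are not a measured change in KLF4 binding.

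The sequence under the member peaks was searched for short words on both strands, in 200 bases around each summit. The KLF words CCACACCC and CCACGCCC occurred in 2 of 38 WT As3+ windows (5.26%, interval 0.644% to 17.7%), at NOTCH1 and HES4, and in 10.3% of all windows of that list. They occurred in 7 of 80 Nrf2 KO control windows (8.75%, 3.59% to 17.2%), at NOTCH1, NOTCH3, JAG2, HES4 and NRARP, beside 9.27% of the list. The AP-1 words TGACTCA and TGAGTCA were found in 1 of 38 and 2 of 80 windows, beside 4.33% and 2.54% of the lists. The GC box CCCCGCCCC was in 5 of 38 (13.2%, 4.41% to 28.1%) and 3 of 80 (3.75%, 0.780% to 10.6%), beside 7.76% and 4.61%. In 100 bases the WT As3+ count of the GC box was 1 of 38. At 200 bases the intervals of the KLF, AP-1 and GC box shares all contain the share of their list. These windows were GC-rich, with a median of 68% in WT As3+ and 66% in Nrf2 KO control, against 64.5% and 61.5% over the lists.

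The words CGTGGGAA and TGTGGGAA, the core recognised by RBPJ, were in 2 of 38 WT As3+ member windows (5.26%, 0.644% to 17.7%) and in 5 of 80 Nrf2 KO control windows (6.25%, 2.06% to 14.0%). The lists as a whole had them in 1.62% and 1.60% of windows. These counts depend on the length of the window, and the other lengths were tried after seeing the data. In 100 bases they were 0 of 38 and 4 of 80 (0.817% and 0.789% of the lists), and in 400 bases 4 of 38 and 9 of 80 (3.45% and 3.28%). The genes were NOTCH1 and NOTCH3 in WT As3+, and NOTCH1, NOTCH2, DLL1 and NRARP in Nrf2 KO control. At NOTCH1 the window 3362 bp upstream of the TSS held a KLF word and an RBPJ word in WT As3+, and so did the overlapping Nrf2 KO control window 3408 bp upstream.

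RefSeq promoters of GRCh38.p14, which run from 250 bases before to 50 bases after the annotated start, were available for 8 of the 10 members, without DLL1 and HEY1. The RBPJ words were in those of HES1 and HES4, beside 2.52% of 35116 promoters. The 30 bases around each are printed because these are the targets that RBPJ is known to switch on, with the word in capitals and 5′ to 3′ on the strand of the gene. The HES1 site is chr3:194136051-194136080 on the plus strand, and its word begins 86 bases before the start. The HES4 site is chr1:1000157-1000186 on the minus strand, and its word begins 78 bases before the start. Unlike the HES1 site, this stretch overlaps an annotated UTR, and the HES4 gene record starts within it, at 1000172.
HES1 site: ctgaaagttacTGTGGGAAagaaagtttgg
HES4 site: gctggggcgagTGTGGGAAagaatgcggag
Both sites share TGTGGGAA followed by agaa. The HES4 word lay inside a KLF4 peak in WT As3+ and in Nrf2 KO control. The HES1 word lay inside none, 648 bp from the nearest WT As3+ peak and 694 bp from the nearest in Nrf2 KO control. The GC box was in 5 of the 8 promoters, those of NOTCH1, NOTCH2, NOTCH3, JAG2 and NRARP, beside 15.7% of all promoters. A KLF word was in that of NRARP alone, where it overlaps a GC box, beside 8.05% of all promoters, and an AP-1 word was in none of the 8, beside 4.95%. Such matches describe letters in these windows and do not show where a factor was bound.

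The rest of the pathway was examined in 38 further genes, which encode other receptors, ligands and targets, the RBPJ and MAML coactivator complex, the Fringe glycosyltransferases, the proteases that cut the receptor, and regulators of Notch turnover. In WT As3+ 35 of the 38 had a peak and in Nrf2 KO control all 38, beside 66.5% and 81.0% of protein-coding genes. The numbers were 4 in WT control and 0 in Nrf2 KO As3+, beside 2.51% and 0.439%. None of the 38 lacked a peak in all 4 libraries. Their density of peaks was 3.62 per 100 kb in WT As3+ and 6.95 in Nrf2 KO control, lower than at the 10 members and higher than over all genes. The peaks were unevenly spread over the 38 genes, so this density is not that of a typical one. Their median was 2 peaks in WT As3+ and 4 in Nrf2 KO control, beside 1 and 2 over protein-coding genes. A promoter peak was found at 31 of them in WT As3+ and 36 in Nrf2 KO control, beside 52.5% and 67.5% of protein-coding genes. The pattern of the 9 members, with peaks in WT As3+ and Nrf2 KO control alone, was shown by 31 of the 38. Over protein-coding genes this share was 61.3%. That of NOTCH2, with peaks in Nrf2 KO control alone, was shown by HEYL, a HEY family repressor, MAML2, a coactivator, and DLK1, a ligand-like protein. It was shown by 17.0% of protein-coding genes.

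A WT control peak was found at SPEN, FBXW7 and ITCH, with 1 each and none of them at a promoter. SPEN encodes a corepressor that acts with RBPJ, and FBXW7 and ITCH encode ubiquitin ligases that act on Notch receptors. High numbers of WT As3+ peaks were seen at LFNG, the gene of a Fringe enzyme that modifies Notch receptors, with 13, and at HES5, DTX1 and SPEN, with 6 each. None of those at LFNG and HES5 lay at the promoter, while DTX1 had 3 there and SPEN 2. LFNG had 6 peaks in Nrf2 KO control, and like HES4 it thus had more peaks in WT As3+. Of the 38 genes, 3 (7.89%) had more peaks in WT As3+, LFNG among them, beside 8.15% of protein-coding genes.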

How the data were processed

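KLF4 ChIP-seq was measured in 4 BEAS-2B libraries, grouped by genotype and treatment as labelled, with 1 per condition. The authors aligned reads to GRCh38/hg38 with BWA and deposited a narrow-peak list for each library; the peak caller is not given in the sources used here. Per peak, the deposited columns hold the summit's fold enrichment (a ratio to local background), a −log10 p, a −log10 q and a display score. The lists keep only peaks with a −log10 q of about 1 or more, so absent sites have no value. Histone mark and input libraries are not analysed here. The only input labelled for KLF4 is from BEAS-2B cells with neither knockout nor As3+ in its label. Whether it entered the peak calls is not given in the sources used here.

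Fragments over a summit (n) and background (λ) were solved from fold = (n + 1)/(λ + 1) taking p as an upper Poisson tail (largest misfit in −log10 p 0.000405). The median n was 25 in WT control, 10 in WT As3+, 7 in Nrf2 KO control and 19 in Nrf2 KO As3+, and the lowest λ was 1.90, 0.757, 0.491 and 1.64. Library read totals were not used here. Genes came from GENCODE 44, and exons and introns are those of the canonical transcript. A gene counted as having a peak when a summit lay within its window. Overlap meant at least 1 bp. Shares carry exact Clopper-Pearson intervals at 95%, for counting error only. The steps for fragments, gene windows and overlaps were tested on simulated data, and the others were not. No test between conditions was possible.

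All 10 members are named. Of the 38 other pathway genes, those named have a WT control or Nrf2 KO As3+ peak, are among the 3 with most WT As3+ peaks (with ties), or share the pattern of NOTCH2. A gene that this rule also picks is not reported here. Peak sequences are those of the strongest WT As3+ peak of a member outside UTRs, of which 5 are printed. The UTR rule was not applied to the HES1 and HES4 promoter sites. The members and lists were chosen with earlier results of these data known. Alternatives were other gene and promoter windows, stricter thresholds, lists of equal length, other definitions of overlap and other word windows. The software was Python 3.11.15, pandas 2.3.3, numpy 2.4.6, matplotlib 3.10.9 and scipy 1.17.1.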

Additional observations from a re-analysis of the deposited data

Results flagged for a closer look

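As3+ went with opposite differences in the 2 genotypes. In WT cells the As3+ library had 38 more peaks in the windows of the Notch genes than the control library, and in Nrf2 KO cells it had 80 fewer, a difference of −80. The number of the 10 genes with a peak was higher by 9 with As3+ in WT cells, and in Nrf2 KO cells the difference was −10. The number with a promoter peak likewise differed by 9 in WT cells and by −10 in Nrf2 KO cells. The same shift runs through the genome, since 2.51% of protein-coding genes had a peak in WT control and 66.5% in WT As3+, and 81.0% in Nrf2 KO control and 0.439% in Nrf2 KO As3+. With 1 library per condition, the difference between the genotypes was not tested.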

How the results depend on the processing

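Of 86 values recomputed under another setting, 72 stayed within 1.5 times the count or within the interval of the share reported and 14 moved, and none of the 32 for WT control and Nrf2 KO As3+ rose above 0. Strictness of the lists moved the counts most. When −log10 q had to reach 5, the peaks at the 10 genes fell to 11 in WT As3+ and 19 in Nrf2 KO control, and the genes with a WT As3+ promoter peak to 4. With each list cut to its strongest 751 peaks, the length of the WT control list, 2 genes (HES1 and HES4) kept 2 peaks in WT As3+, and 3 genes (JAG1, DLL1 and HES4) kept 5 peaks in Nrf2 KO control. The share of WT As3+ peaks that overlap Nrf2 KO control went from 76.3% to 18.4% for summits within 100 bp, 23.7% for 50% of each peak and 54.5% with that −log10 q in both lists. For Nrf2 KO control peaks it went from 31.3% to 8.75% and 11.3% under the first pair of these settings. The cause was not tested, beyond the fewer peaks that the stricter settings keep by construction. Other gene windows and TSS moved no count by more than 1.5 times. The share of windows with a KLF word went from 5.26% to 10.5% in WT As3+ and from 8.75% to 15.0% in Nrf2 KO control with 400 bp, within the intervals. For the other words, 100 bp and 400 bp were both settings added after seeing the data. With 100 bp the WT As3+ share fell to 2.63% for the GC box and to 0% for the RBPJ word. A common lowest −log10 p of 5.03 in every list, chosen after seeing the data, left 32 peaks in WT As3+ and 62 in Nrf2 KO control. No paired analysis was possible because there is 1 library per condition, and no library could be left out. Depth limits single member peaks, which rest on 4 to 30 fragments.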
